A study of Mus musculus with 8 samples.

Results

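Expression of 9 genes of liver-secreted signals, Fgf21, Gdf15, Angptl4, Angptl8, Igfbp1, Igfbp2, Inhba, Inhbe and Fst, was followed in regenerating mouse liver after hepatocyte knockdown of Tbl1xr1. They were taken by name from the 55401 genes of the deposited tables, and all 9 were among the 13908 genes with enough counts to be tested. Livers of the shTbl1xr1 group came from C57BL/6J mice whose hepatocytes carried a short hairpin RNA against Tbl1xr1, delivered by an adeno-associated virus. Livers of the shNC group came from C57BL/6J mice given a control hairpin by the same route. In both groups partial hepatectomy, the removal of most of the liver, followed 4 weeks after the virus and liver was taken on day 2, with 4 libraries per group. The labels do not give sex or age, nor say that each library is a separate animal, so a p-value measures only the spread between these libraries.

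Hepatokines are proteins that the liver releases to act on other tissues or on itself. FGF21 signals through FGF receptors with the coreceptor beta-klotho and is induced by fasting and by amino acid shortage, and GDF15 signals stress to the hindbrain through GFRAL and RET. ANGPTL4 and ANGPTL8 restrain lipoprotein lipase in fasted and fed states, and IGFBP1 and IGFBP2 bind insulin-like growth factors. Inhba and Inhbe encode activin chains, and activin A, made from the Inhba chain, is held in check by follistatin, the product of Fst. TBL1XR1 is a subunit of the NCoR and SMRT corepressor complexes, through which several nuclear receptors keep metabolic genes down.

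Libraries held 10728583 to 36720879 counts in shTbl1xr1 and 25811763 to 27537235 counts in shNC. The smallest were shTbl1xr1 1 and 2, in which mitochondrially encoded genes also took the highest shares of counts, 11.3% and 14.8%, against 4.52% to 7.34% in the remaining 6 libraries. Levels are given as CPM, counts relative to the library's size after TMM scaling, which sets libraries on a common scale by their bulk of genes. The TMM factors were 0.734 and 0.675 for shTbl1xr1 1 and 2, against 1.08 to 1.16 for the remaining 6 libraries. TMM thus raised the CPM of shTbl1xr1 1 and 2 and lowered those of the rest. Tbl1xr1 had 2.38, 2.07, 9.24 and 15.9 CPM in shTbl1xr1 1 to 4, against 27.2, 35.9, 33.7 and 34.6 CPM in shNC 1 to 4 (two-sided exact permutation p = 0.0286, the smallest that 4 against 4 can give). By edgeR Tbl1xr1 did not pass, with -2.07 on the log2 scale (SE 0.54, adjusted p = 0.290). Its log2 fold change was -3.88 with shTbl1xr1 1 and 2 only and -1.38 with shTbl1xr1 3 and 4 only. Low depth, a high mitochondrial share and the lowest Tbl1xr1 thus fell on the same 2 libraries and cannot be told apart below. All 10 hepatocyte markers were detected, with a summed level of 58591 to 99750 CPM in shTbl1xr1 and 60348 to 79419 CPM in shNC. Summed markers of other cells were lower in shTbl1xr1 1 and 2 than in any shNC library for macrophages (12 of 12 markers tested), at 340 to 882 CPM in shTbl1xr1 and 658 to 1058 CPM in shNC. The same held for endothelial cells (10 of 10 tested), at 190 to 381 CPM in shTbl1xr1 and 319 to 370 CPM in shNC, and for stellate cells and fibroblasts (10 of 10 tested), at 125 to 615 CPM in shTbl1xr1 and 262 to 514 CPM in shNC. Lymphocyte markers (3 of 8 tested) summed to 2.13, 2.76, 2.16 and 3.59 CPM in shTbl1xr1 1 to 4, against 3.42 to 4.90 CPM in shNC. No listed marker was at 0 in all libraries, and the part of these cells in the results below was not tested.

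Of the 9 genes, 0 passed the threshold of an adjusted p under 0.05 by edgeR's quasi-likelihood test, where 7 of 13908 genes (0.0503%) did, 0.0431% higher and 0.00719% lower in shTbl1xr1. By unadjusted p under 0.05, 1 of 9 was higher (Igfbp2) and 0 were lower, against 7.9% of genes tested higher and 3.71% lower. By DESeq2, 1 of 9 passed as higher, again Igfbp2, and by limma-voom 0. The 4 shTbl1xr1 libraries lay apart from the 4 shNC libraries for 1 of 9 genes, once more Igfbp2, against 7.25% of genes tested, so neither share can be read as more than the background with so few genes. The log2 fold changes were positive for 6 and negative for 3, with a median of 0.07 against 0.01 over all genes tested. In bulk tissue a lower level from fewer cells and one from less RNA per cell cannot be told apart.

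**Figure D1:**
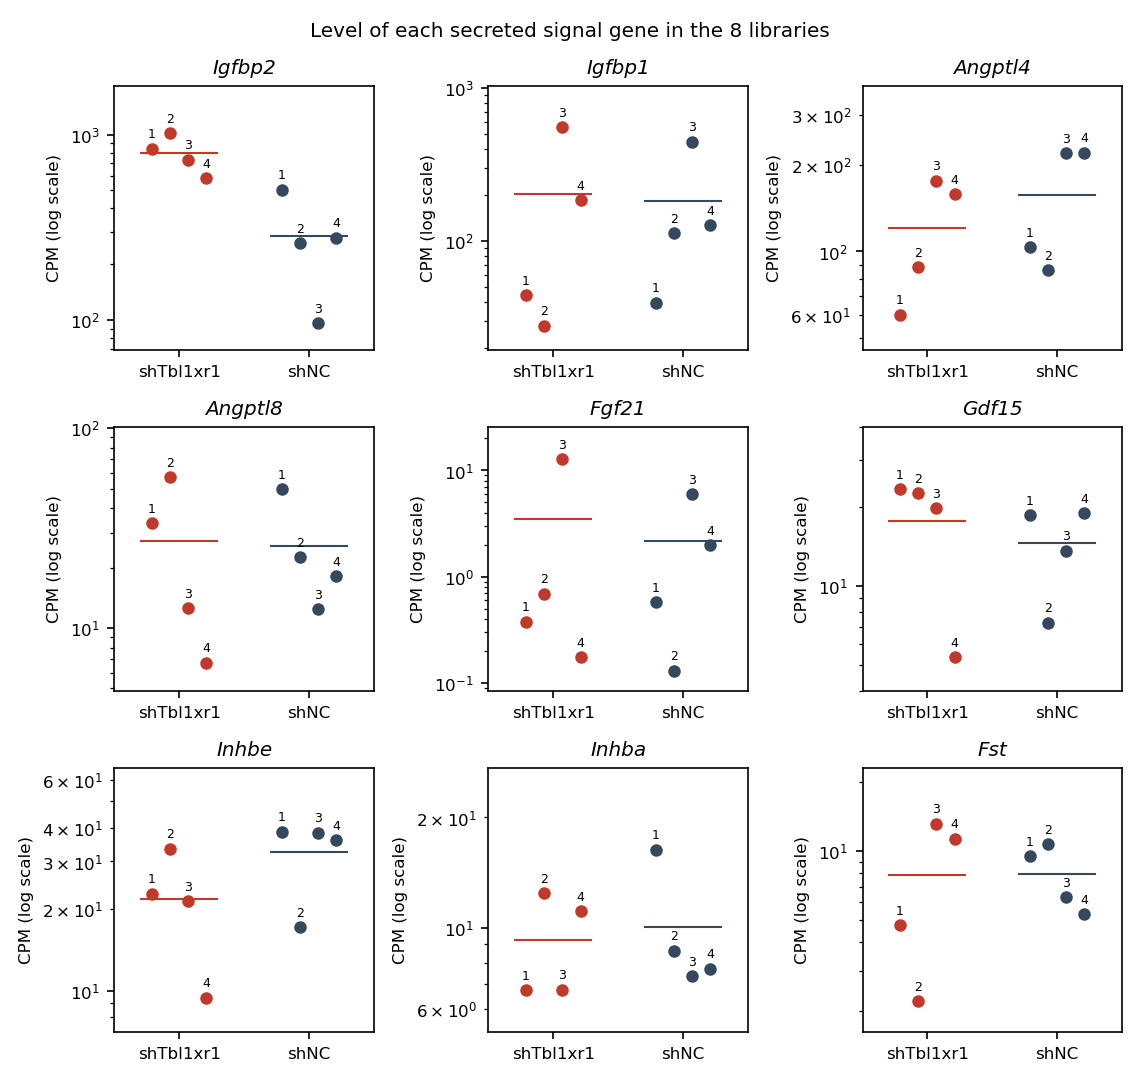
Level of each of the 9 genes in CPM on a log axis, with 1 point per library (numbered by replicate) and the group mean as a line, shTbl1xr1 at the left and shNC at the right of each panel. The Igfbp2 points of shTbl1xr1 lie between 581 and 1016 CPM, all above the shNC points, and in the other 8 panels the groups overlap.

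Igfbp2 (ENSMUSG00000039323.18; chromosome 1, 72824503 to 72852474, plus strand, mm10) encodes an insulin-like growth factor binding protein that is abundant in fetal liver and in serum. It had 840, 1016, 732 and 581 CPM in shTbl1xr1 1 to 4, against 504, 259, 96.5 and 278 CPM in shNC 1 to 4. Every shTbl1xr1 library was above every shNC library, the closest being shTbl1xr1 4 and shNC 1. Igfbp2 averaged 792 ± 183 CPM in shTbl1xr1 and 284 ± 168 CPM in shNC (SD, n = 4 each). By edgeR this came to 1.48 on the log2 scale (SE 0.43), short of the threshold at an adjusted p = 0.327. It passed by DESeq2 (log2 fold change 1.49, adjusted p = 0.0297), which called 1.86% of genes higher and 0.352% lower. It was 1.20 with shTbl1xr1 3 and 4 only and 1.70 with shTbl1xr1 1 and 2 only, both against the same shNC libraries, and since the groups do not overlap both had to be positive. The deposited TPM, which are scaled by transcript length and not by TMM, also kept the groups apart, but by a narrow margin, with 560 TPM in shTbl1xr1 1 and 552 TPM in shNC 1.

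Igfbp1 (ENSMUSG00000020429.7; chromosome 11, 7197782 to 7202546, plus strand) encodes the binding protein that insulin switches off through FOXO1 and that rises early after hepatectomy. It had 44.2, 27.9, 558 and 186 CPM in shTbl1xr1 1 to 4, against 39.6, 113, 448 and 128 CPM in shNC 1 to 4. The groups covered nearly the same range, and the third library was the highest in each. The log2 fold change was 0.17 (SE 0.95, edgeR adjusted p = 0.949). It was -2.34 with shTbl1xr1 1 and 2 only, 1.03 with shTbl1xr1 3 and 4 only and -1.07 without shTbl1xr1 3, none of which passed (adjusted p = 0.152, 0.706 and 0.498).

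The SD of Igfbp1 was 1.97 on the log2 scale in shTbl1xr1 and 1.43 in shNC, greater than that of 98.7% and 99.5% of genes tested. Igfbp2 was also uneven in shNC, and less so in shTbl1xr1. Its SD was 0.34 in shTbl1xr1 (greater than that of 33.3% of genes) and 0.99 in shNC (greater than that of 98.4% of genes). Whether the spread itself differed between groups was not tested. In shNC the library highest in Igfbp2 (shNC 1) was the lowest in Igfbp1, and the one lowest in Igfbp2 (shNC 3) was the highest in Igfbp1. The ratio of Igfbp2 to Igfbp1 in TPM, which compares both per length within a library, was 25.8, 51.1, 1.58 and 3.76 in shTbl1xr1 1 to 4, against 15.4, 2.76, 0.259 and 2.63 in shNC 1 to 4. It was lowest in the third library of each group, and shNC 3 was the only library of the 8 with more Igfbp1 than Igfbp2.

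**Figure D2:**
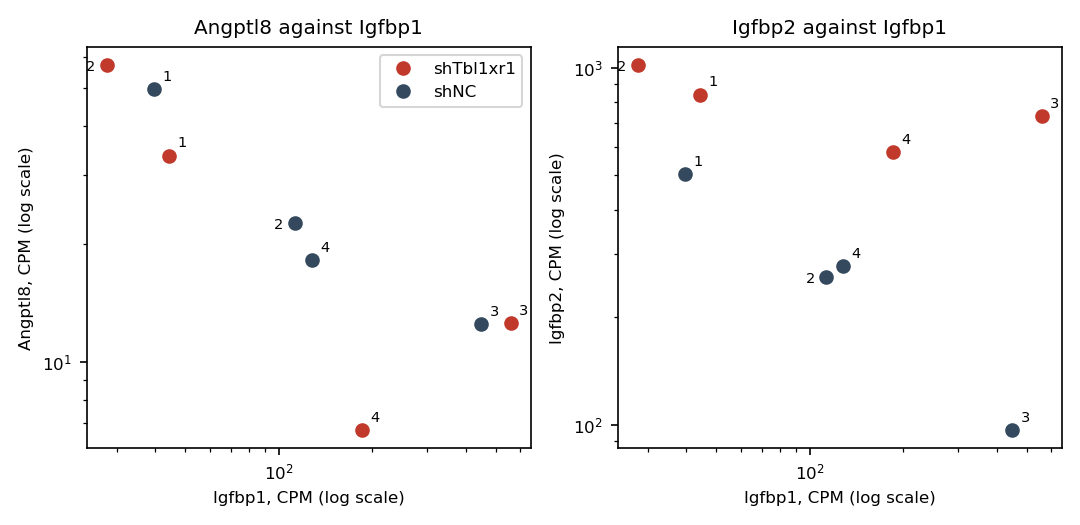
Angptl8 (left) and Igfbp2 (right) against Igfbp1 in CPM, both axes logarithmic, 1 point per library numbered by replicate and coloured by group. The 3 libraries lowest in Igfbp1 are the 3 highest in Angptl8, and the shTbl1xr1 points of Igfbp2, at 581 to 1016 CPM, lie above the shNC points, at 96.5 to 504 CPM.

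Start-site windows of the genes were read from RefSeq on GRCm38.p6, the assembly that mm10 denotes, as 250 bases before to 50 bases after the start. Windows were found for 7 of the 9 genes, and 5 of them are shown because they hold letters known from the response to insulin or to amino acid shortage, or because the gene stood apart between groups. Both strands were searched for 5 motifs, whose matches did not overlap and are in capitals in the lines that follow. The core of the insulin response element bound by FOXO proteins was taken as CAAAACA. A second forkhead core was taken as GTAAACA and had no match in the 7 genes, against 3.65% of all windows. The composite element bound by ATF4 with a C/EBP partner was taken as TGATGNAA. The E-box was taken as CACGTG. The TATA box was taken as TATAAA.
Igfbp1, chr11:7197537-7197836, plus strand: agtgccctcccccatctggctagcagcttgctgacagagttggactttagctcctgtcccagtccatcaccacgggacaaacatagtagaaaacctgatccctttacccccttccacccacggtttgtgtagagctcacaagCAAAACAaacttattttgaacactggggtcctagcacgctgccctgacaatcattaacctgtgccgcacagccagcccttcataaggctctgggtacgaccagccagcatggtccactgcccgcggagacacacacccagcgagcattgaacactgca
Angptl8, chr9:21835260-21835559, plus strand: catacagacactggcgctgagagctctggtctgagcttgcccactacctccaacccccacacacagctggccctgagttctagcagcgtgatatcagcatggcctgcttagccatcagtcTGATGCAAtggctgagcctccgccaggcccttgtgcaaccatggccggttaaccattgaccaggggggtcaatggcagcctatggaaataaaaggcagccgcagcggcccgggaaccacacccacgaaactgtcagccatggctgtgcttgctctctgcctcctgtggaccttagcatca
Fgf21, chr7:45615441-45615740, minus strand: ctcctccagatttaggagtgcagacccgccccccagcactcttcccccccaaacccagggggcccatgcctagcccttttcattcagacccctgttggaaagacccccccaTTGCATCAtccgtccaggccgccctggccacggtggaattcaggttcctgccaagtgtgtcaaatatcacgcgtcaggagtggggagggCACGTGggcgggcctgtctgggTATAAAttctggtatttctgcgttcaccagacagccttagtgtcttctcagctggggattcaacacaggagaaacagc
Inhbe, chr10:127351799-127352098, minus strand: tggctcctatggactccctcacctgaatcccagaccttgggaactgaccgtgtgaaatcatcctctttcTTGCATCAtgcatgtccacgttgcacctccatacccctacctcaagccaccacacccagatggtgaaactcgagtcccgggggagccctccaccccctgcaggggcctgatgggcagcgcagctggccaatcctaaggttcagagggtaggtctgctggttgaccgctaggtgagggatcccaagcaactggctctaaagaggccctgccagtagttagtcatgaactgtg
Igfbp2, chr1:72824230-72824529, plus strand: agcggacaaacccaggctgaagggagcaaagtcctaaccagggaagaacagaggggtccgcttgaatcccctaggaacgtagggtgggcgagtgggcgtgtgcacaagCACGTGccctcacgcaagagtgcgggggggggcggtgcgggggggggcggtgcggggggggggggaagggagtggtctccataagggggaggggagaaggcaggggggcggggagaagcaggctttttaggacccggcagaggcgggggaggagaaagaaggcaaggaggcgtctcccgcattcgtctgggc
Igfbp1 holds the insulin response core, its first base at -108 from the start, as do 6.29% of all 32817 such windows in the genome. Angptl8, Fgf21 and Inhbe each hold the ATF4 composite element, with first bases at -130, -139 and -181 from the start and in reverse orientation in Fgf21 and Inhbe, which 3.97% of all windows hold. Fgf21 also holds an E-box and a TATA box, with first bases at -50 and -28 and found in 7.15% and 13.6% of windows, and the first window of Igfbp2 holds an E-box. The RefSeq start of Inhbe lies inside the gene as GENCODE draws it, and a second RefSeq window of Igfbp2 held none of these letters. Such matches describe the letters only.

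Angptl4 (ENSMUSG00000002289.16; chromosome 17, 33773750 to 33781830, minus strand) encodes an inhibitor of lipoprotein lipase that PPAR receptors induce in fasting. It had 60.2, 88.0, 177 and 158 CPM in shTbl1xr1 1 to 4, against 103, 86.0, 221 and 221 CPM in shNC 1 to 4. Libraries 3 and 4 were the high ones in both groups, and the ranges overlapped. For Angptl4 the log2 fold change was -0.38 (SE 0.42, edgeR adjusted p = 0.696), with -1.10 for shTbl1xr1 1 and 2 only and 0.08 for shTbl1xr1 3 and 4 only.

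Angptl8 (ENSMUSG00000047822.8; chromosome 9, 21835510 to 21837347, plus strand) encodes a small secreted protein that feeding and insulin induce. The gene overlaps Dock6 on the opposite strand, and since the strand setting of the counting is not given, their reads may not be fully separate. It had 33.5, 57.0, 12.6 and 6.72 CPM in shTbl1xr1 1 to 4, against 49.7, 22.6, 12.5 and 18.2 CPM in shNC 1 to 4. The 2 shTbl1xr1 libraries of low depth and lowest Tbl1xr1 were high and the other 2 low, so the group straddled shNC. The log2 fold change was 0.07 (SE 0.64, edgeR adjusted p = 0.969), with 0.81 for shTbl1xr1 1 and 2 only and -1.42 for shTbl1xr1 3 and 4 only. Scaling by library size without TMM gave -0.43, with the median of all genes then at -0.27.

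Over the 8 libraries, log2 levels of Angptl8 and Igfbp1 ran against each other, with Pearson's r = -0.85 (exact permutation p = 0.0100) and Spearman's rho = -0.90 (exact permutation p = 0.00456). Among the 36 pairs of the 9 genes this was the strongest, and adjusted over them it did not pass (adjusted p = 0.361 for r and 0.164 for rho). Leaving out the 2 libraries farthest from the Angptl8 median gave r = -0.96, leaving out those farthest from the Igfbp1 median gave r = -0.82, and the 6 deeper libraries gave r = -0.74. Angptl8 and Igfbp1 values share each library's scaling.

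Fgf21 (ENSMUSG00000030827.5; chromosome 7, 45613886 to 45615490, minus strand) was the least counted of the genes. It had 3, 5, 396 and 7 counts in shTbl1xr1 1 to 4, or 0.376, 0.690, 12.8 and 0.174 CPM. In shNC 1 to 4 it had 16, 4, 181 and 58 counts, or 0.574, 0.131, 6.01 and 1.98 CPM. The third library was the highest in both groups, far above the rest in shTbl1xr1. Within shNC, shNC 4 came next with 58 counts, and the remaining libraries of both groups held few molecules. Exact Poisson 95% intervals, which cover counting error only, ran from 11.5 to 14.1 CPM in shTbl1xr1 3, from 0.0774 to 1.10 CPM in shTbl1xr1 1 and from 5.16 to 6.95 CPM in shNC 3. The log2 fold change of 0.78 (SE 1.3, edgeR adjusted p = 0.805) was -2.69 without shTbl1xr1 3 and 2.05 without shNC 3, neither of which passed (adjusted p = 0.292 and 0.673). Without shTbl1xr1 1, 2 or 4 it was 1.12, 1.08 and 1.20, and without shNC 1, 2 or 4 it was 0.47, 0.37 and 0.72.

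In shTbl1xr1 3, the library highest in Fgf21, genes of the integrated stress response were high as well. Trib3, a pseudokinase induced by ATF4, had 2.25, 1.52, 10.8 and 2.28 CPM in shTbl1xr1 1 to 4, against 0.897, 0.425, 1.33 and 1.43 CPM in shNC 1 to 4. In CPM every shTbl1xr1 library was above every shNC library, with shTbl1xr1 2 only just above shNC 4. Scaled by library size alone, without TMM, shTbl1xr1 2 lay below shNC 3 and 4, so the separation rests on TMM. The difference of 2.09 on the log2 scale (SE 0.65) missed the threshold (edgeR adjusted p = 0.345). Chac1, which degrades glutathione and is another ATF4 target, had 8.66 CPM in shTbl1xr1 3 and 1.0 to 2.60 CPM in the other shTbl1xr1 libraries, against 0.395 to 1.79 CPM in shNC. Over the 14 tested genes of the list the median log2 difference from the shNC mean was 0.74 in shTbl1xr1 3, and below 0 in the other shTbl1xr1 libraries. Summed over the list, however, shTbl1xr1 1 to 4 had 455, 482, 462 and 291 CPM, against 412, 420, 635 and 479 CPM in shNC 1 to 4, with the highest sum in shNC 3, the shNC library highest in Fgf21. Markers of bile duct cells, neutrophils, stellate cells and fibroblasts, and red blood cells had medians of 1.58, 1.41, 0.59 and 0.38 in shTbl1xr1 3, each the highest of the 4 shTbl1xr1 libraries. Summed levels were 38.2 to 238 CPM in shTbl1xr1 and 32.4 to 119 CPM in shNC for bile duct cells (7 of 8 tested), and 2.38 to 17.3 CPM in shTbl1xr1 and 3.81 to 9.63 CPM in shNC for neutrophils (4 of 7 tested). Stellate cell and fibroblast markers summed to 615 CPM in shTbl1xr1 3, above the shNC range. Within shNC, shNC 3 had the highest sums for bile duct cells and for stellate cells and fibroblasts, 119 and 514 CPM. Its neutrophil and red blood cell sums, 6.77 and 474 CPM, were not the highest. Hepatocyte markers had their lowest sum in the third library of each group, at 58591 CPM in shTbl1xr1 and 60348 CPM in shNC. Red blood cell markers (5 of 6 tested) summed to 445 to 999 CPM in shTbl1xr1 and 474 to 1423 CPM in shNC, and the part of these cells was not tested.

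Gdf15 (ENSMUSG00000038508.7; chromosome 8, 70629393 to 70632456, minus strand) encodes a stress-induced member of the TGF beta family that p53 and ATF4 can both induce. It had 23.3, 22.5, 19.7 and 5.36 CPM in shTbl1xr1 1 to 4, against 18.6, 7.25, 13.6 and 18.9 CPM in shNC 1 to 4. On this scale the shTbl1xr1 libraries held both the 3 highest values and the lowest one. In the deposited TPM, without TMM, shTbl1xr1 1 and 2 had 12.8 and 10.7 TPM, below the 18.4, 16.0 and 21.1 TPM of shNC 1, 3 and 4. Gdf15 differed by 0.26 on the log2 scale (SE 0.45, edgeR adjusted p = 0.808), with 0.65 for shTbl1xr1 1 and 2 only and -0.22 for shTbl1xr1 3 and 4 only.

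Inhbe (ENSMUSG00000047492.5; chromosome 10, 127348857 to 127354411, minus strand) encodes the activin E chain, which hepatocytes release and which restrains fat breakdown in adipose tissue. It had 22.8, 33.4, 21.4 and 9.40 CPM in shTbl1xr1 1 to 4, against 38.7, 17.2, 38.3 and 36.0 CPM in shNC 1 to 4. All 4 shTbl1xr1 libraries lay below 3 of the 4 shNC libraries, and shNC 2 was the exception. Inhbe was lower by edgeR with a log2 fold change of -0.60 and an SE of 0.38, short of the threshold (adjusted p = 0.510). The value was negative under all 19 alternatives tried, between -1.09 and -0.22, and passed under none of them (adjusted p from 0.316 to 0.781).

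Inhba (ENSMUSG00000041324.14; chromosome 13, 16011851 to 16031621, plus strand) encodes the activin A chain, an inhibitor of hepatocyte growth. It had 6.76, 12.4, 6.76 and 11.1 CPM in shTbl1xr1 1 to 4, against 16.3, 8.65, 7.37 and 7.73 CPM in shNC 1 to 4. The groups overlapped. The highest value was that of shNC 1, and without it the log2 fold change of -0.12 (SE 0.32, edgeR adjusted p = 0.888) became 0.23 (adjusted p = 0.748). Inhba, Inhbe and Fst each overlap annotated genes on the other strand, so part of their reads may not be separate.

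Fst (ENSMUSG00000021765.9; chromosome 13, 114452290 to 114458951, minus strand) encodes follistatin, which binds and neutralises activin A. It had 4.76, 2.21, 13.2 and 11.3 CPM in shTbl1xr1 1 to 4, against 9.51, 10.7, 6.31 and 5.31 CPM in shNC 1 to 4. The shTbl1xr1 group split into 2 libraries below and 2 above the whole shNC range, which left the fold change at 0.03 on the log2 scale (SE 0.47, edgeR adjusted p = 0.980). With shTbl1xr1 1 and 2 only, Fst fell by 1.18 on the log2 scale (SE 0.41, edgeR adjusted p = 0.0448), in a comparison that called 21.1% of genes lower and 21.5% higher. With shTbl1xr1 3 and 4 only it was 0.62 (SE 0.28, adjusted p = 0.472). Markers of several other cell types were also low in shTbl1xr1 1 and 2. Median log2 differences from the shNC mean in shTbl1xr1 1 to 4 were -1.28, -1.36, 0.59 and -0.21 for stellate cells and fibroblasts, -1.47, -1.12, -0.05 and 0.02 for macrophages, and -0.86, -0.96, 0.06 and 0.06 for endothelial cells. For lymphocytes (3 of 8 tested) they were -1.62, -1.78, -1.66 and 0.61, low in shTbl1xr1 3 as well. In shTbl1xr1 4 Fst lay above the shNC range while the stellate median was below 0, and the part of these cells was not tested. The ratio of Fst to Inhba in TPM was 3.19, 0.491, 5.74 and 2.66 in shTbl1xr1 1 to 4, against 2.28, 3.09, 2.70 and 2.22 in shNC 1 to 4. Fst thus exceeded Inhba per length in 7 of the 8 libraries, with shTbl1xr1 2 the exception.

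**Figure D3:**
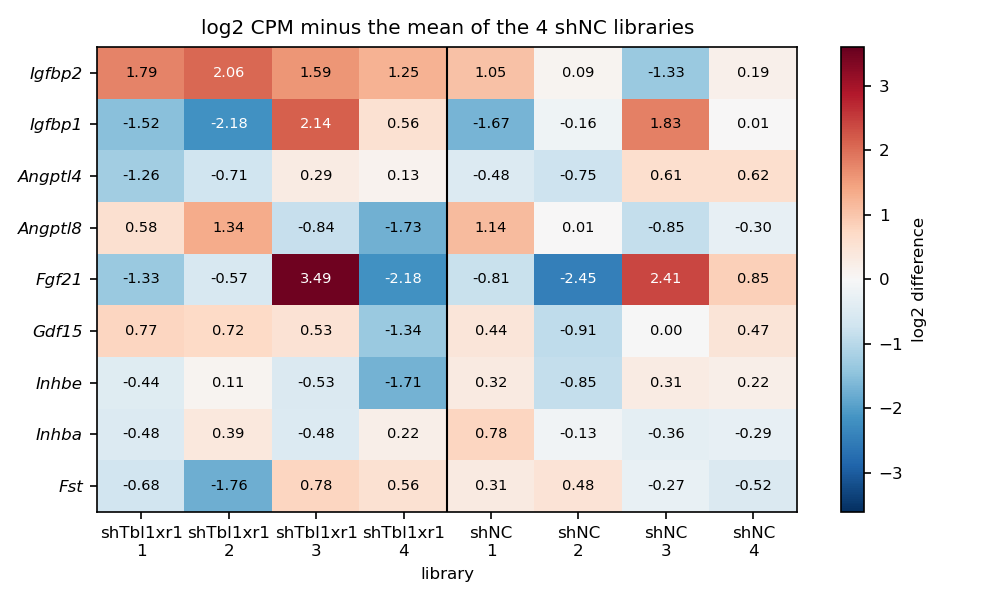
Log2 CPM of each gene in each library minus the mean of the 4 shNC libraries, shTbl1xr1 libraries at the left of the line and shNC at the right, with red above and blue below that mean. Igfbp2 is above it by 1.25 to 2.06 in all 4 shTbl1xr1 libraries, while Igfbp1 and Fgf21 are highest in the third library of each group, at 2.14 and 3.49 in shTbl1xr1 and 1.83 and 2.41 in shNC.

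**Figure D4:**
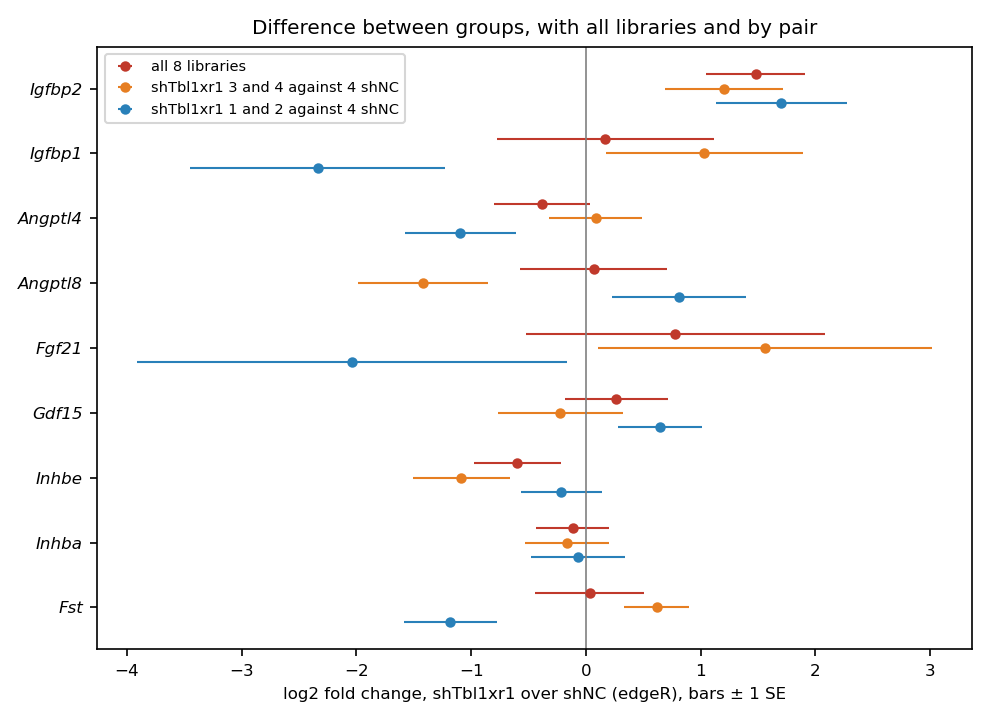
Log2 fold change of shTbl1xr1 over shNC from edgeR, with bars of 1 SE, for all 8 libraries and for each shTbl1xr1 pair against the same 4 shNC libraries. Igfbp2 is at 1.48, 1.20 and 1.70, positive in each as groups that do not overlap must be, while Igfbp1, Angptl4, Angptl8, Fgf21, Gdf15 and Fst lie on opposite sides of 0 in the 2 pairs.

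By deposited TPM, which allow levels of different genes to be set side by side, Igfbp2 stood first in both groups, with 705 ± 158 TPM in shTbl1xr1 and 333 ± 175 TPM in shNC (SD, n = 4 each). Igfbp1, Angptl4, Angptl8 and Gdf15 followed in that order in both groups, with means of 202, 72.4, 31.1 and 13.0 TPM in shTbl1xr1 and 189, 112, 50.9 and 15.8 TPM in shNC. Fgf21, Fst, Inhbe and Inhba came last in shTbl1xr1, at 6.29, 5.54, 3.67 and 1.78 TPM. In shNC the last 4 were Inhbe, Fst, Fgf21 and Inhba, at 8.24, 5.98, 4.10 and 2.34 TPM. Neighbours in the order had overlapping ranges over libraries in 8 of 8 steps in shTbl1xr1 and 7 of 8 in shNC, where Angptl8 was above Gdf15 in every library and beyond its range. Fgf21 took its place in shTbl1xr1 from 1 library, and by the median it was the last of the 9, at 0.435 TPM.

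Of the 9235 genes compared, those whose log2 levels ran closest to the 3 most abundant of the 9 over the 8 libraries were chosen as the 3 highest by Pearson's r, so they are a description and have no p. For Igfbp2 they were Fam69a (r = 0.97, rho = 0.88), Amdhd2, a deacetylase of amino sugar metabolism (r = 0.97, rho = 0.90), and Cyp2c70, an enzyme of muricholic bile acid synthesis in mice (r = 0.96, rho = 0.90). For Igfbp1 they were the receptor phosphatase gene Ptprk (r = 0.98, rho = 0.98), the endosomal sorting gene Snx27 (r = 0.98, rho = 0.98) and Fam172a (r = 0.97, rho = 0.90). For Angptl4 they were Tnxb (r = 0.97, rho = 0.90), Klf10, a Krüppel-like transcription factor (r = 0.97, rho = 0.98), and Tbc1d8 (r = 0.96, rho = 0.86). Leaving out the 2 libraries farthest from the median of each gene kept r at 0.90 for all of Igfbp2's, and between 0.93 and 0.98 for the rest. Log2 fold changes between groups were 0.64, 0.68 and 1.94 for Fam69a, Amdhd2 and Cyp2c70, positive like that of Igfbp2, so the group difference enters their r. They were -0.02, -0.01 and -0.06 for Ptprk, Snx27 and Fam172a, and -0.30, -0.56 and -0.24 for Tnxb, Klf10 and Tbc1d8.

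Around these signals, 10 lists of receptors, targets, relatives and regulators held 135 genes, of which 122 were tested. By edgeR 0 passed in either direction, and the groups did not overlap for 8 higher and 3 lower, where 3.88% and 3.37% of all genes tested did. Receptors of FGF21 were present, with the coreceptor Klb at 12.2 ± 5.0 CPM in shTbl1xr1 and 15.5 ± 2.87 CPM in shNC and Fgfr4 at 28.4 ± 2.78 CPM in shTbl1xr1 and 30.9 ± 3.08 CPM in shNC (SD, n = 4 each). The GDF15 receptor gene Gfral had no count in any library, and its partner Ret had none except in shNC 1, at 0.0359 CPM. Of the 5 tested receptor genes 1 had a positive log2 fold change, Fgfr1 at 0.42 (SE 0.27), and Fgfr3 had -0.42 (SE 0.32), with a list median of -0.27 and edgeR adjusted p = 0.517 and 0.574.

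Of the 3 lipase genes listed with the angiopoietin-like family, Lipc and Lpl separated the groups in CPM without passing. Lipg, endothelial lipase, did not separate them. Scaled by library size alone, without TMM, Lpl in shTbl1xr1 1 lay below shNC 1, so its separation rests on TMM. Lipg had 2.88, 3.45, 3.28 and 14.3 CPM in shTbl1xr1 1 to 4, against 7.82, 8.36, 12.1 and 9.54 CPM in shNC 1 to 4, with a log2 fold change of -0.61 (SE 0.49). Lipc, hepatic lipase, had 99.6, 122, 71.6 and 82.7 CPM in shTbl1xr1 1 to 4, against 54.4, 30.7, 27.3 and 45.7 CPM in shNC 1 to 4 (log2 fold change 1.25, SE 0.26, edgeR adjusted p = 0.196). Lpl, lipoprotein lipase itself, had 73.1, 89.6, 83.0 and 62.0 CPM in shTbl1xr1 1 to 4, against 55.5, 48.3, 42.4 and 30.4 CPM in shNC 1 to 4 (log2 fold change 0.80, SE 0.21, edgeR adjusted p = 0.290). In CPM Lipc was highest in shTbl1xr1 1 and 2, the libraries of low depth and lowest Tbl1xr1, and still apart from shNC in shTbl1xr1 3 and 4. By library size alone shTbl1xr1 4 was the highest and the groups stayed apart, so the order within shTbl1xr1 rests on TMM. The 8 tested members of that list had a median log2 fold change of 0.14, with 5 positive and 3 negative.

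In the IGF system, 6 of 12 tested genes had positive and 6 negative log2 fold changes, with a median of -0.0043. Against the shNC mean the list's median was -0.71 and -0.43 in shTbl1xr1 1 and 2, and -0.02 and 0.23 in shTbl1xr1 3 and 4. Igf1, the main circulating growth factor bound by these proteins, had 947, 1071, 401 and 429 CPM in shTbl1xr1 1 to 4, against 465, 394, 396 and 431 CPM in shNC 1 to 4. It was well above shNC in shTbl1xr1 1 and 2 and within the shNC range in shTbl1xr1 3 and 4. Igfbp4 was highest in shTbl1xr1 1 and 2, and shTbl1xr1 4 was above shNC as well (2506, 2414, 1209 and 1455 CPM in shTbl1xr1 1 to 4, against 1294, 1046, 1243 and 1298 CPM in shNC 1 to 4). Neither gene passed (edgeR adjusted p = 0.426 for both). Among activin subunits, receptors and antagonists 7 of 14 had positive log2 fold changes (median 0.03), with the receptors Acvr1 at 0.42 (SE 0.17) and Acvr2b at 0.79 (SE 0.34). Among other secreted liver signals 15 of 23 were positive (median 0.37, with medians against the shNC mean of 0.47 and 0.46 in shTbl1xr1 1 and 2 but -0.16 and -0.24 in shTbl1xr1 3 and 4), with Dpp4, a circulating peptidase, at 0.46 (SE 0.17) and Bmp10 at -0.92 (SE 0.30). None of these 4 passed (edgeR adjusted p between 0.345 and 0.419).

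Of the targets of regulators known for these signals, PPAR alpha targets had negative log2 fold changes for 10 of 15 (median -0.28), with Acadm, which encodes a dehydrogenase of fatty acid oxidation, at -0.71 (SE 0.15). Insulin and FOXO1 targets were negative for 7 of 9 (median -0.15). Against the shNC mean their median was -0.73 and -0.64 in shTbl1xr1 1 and 2 but 0.0046 and 0.40 in shTbl1xr1 3 and 4, with the fold change of Sesn3 at 0.61 (SE 0.16). Lipogenic genes were positive for 10 of 12 (median 0.45), with Scd1 at 1.65 (SE 0.33) and Thrsp at 2.20 (SE 0.49). Integrated stress response genes were positive for 8 of 14 (median 0.11) and p53 targets for 5 of 10 (median -0.0042). Of the latter, Bax was at 0.48 (SE 0.26) and Phlda3 at 0.58 (SE 0.33). Bax had 51.6, 59.2, 31.8 and 25.5 CPM in shTbl1xr1 1 to 4, against 26.0 to 33.8 CPM in shNC. Phlda3 had 15.6, 16.0, 10.1 and 7.02 CPM, against 4.98 to 10.7 CPM, so both were above shNC only in shTbl1xr1 1 and 2. For the genes named in this paragraph edgeR's adjusted p was between 0.180 and 0.477.

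**Figure D5:**
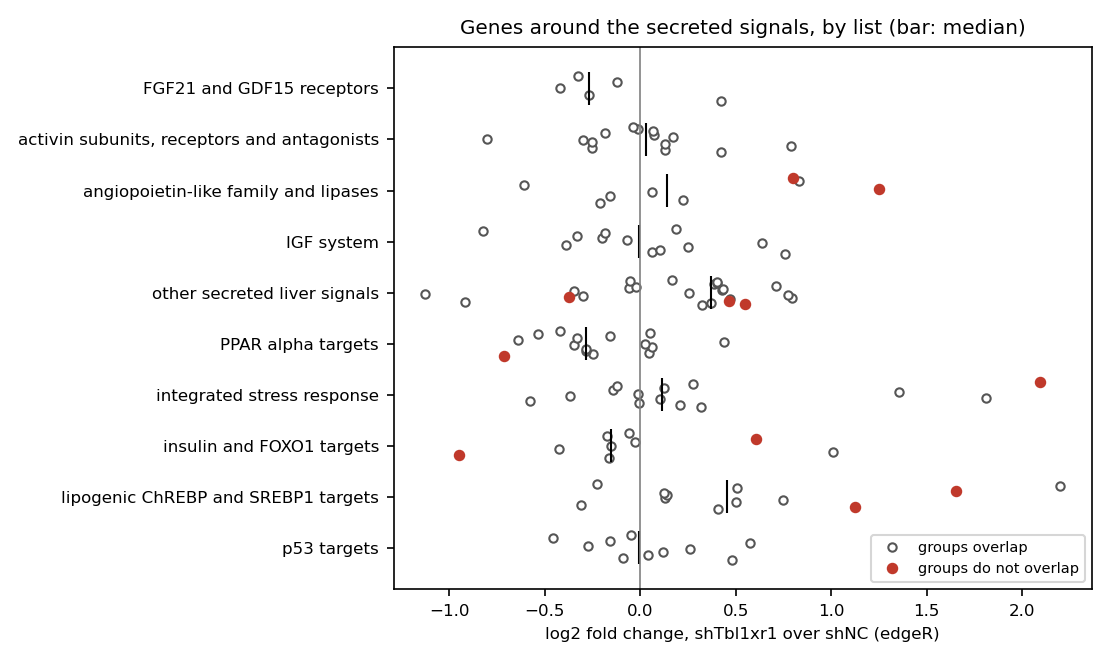
Log2 fold change of shTbl1xr1 over shNC for each tested gene of the 10 lists, 1 point per gene, with the list median as a bar. Points are filled where the 2 groups did not overlap in CPM after TMM. Medians lie between -0.28 for PPAR alpha targets and 0.45 for lipogenic genes, and the 11 filled points include Lipc at 1.25, Lpl at 0.80 and Trib3 at 2.09.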

How the data were processed

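Per the file headers, the authors deposited for each of the 8 libraries a table of 55401 genes with expected counts, TPM and FPKM, where an expected count is an estimate of fragments per gene that need not be whole. Per the submitters' processing notes, alignment and counting involved STAR with RSEM on mm10, and DESeq2 1.30.1 is listed too. The strand setting, like the annotation release, is not given in the sources used here. The deposited TPM were used for levels of different genes, and the deposited FPKM were not used further. The files' gene lengths and effective lengths, another deposited quantity, were not used in tests.

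Symbols and positions came from GENCODE mouse release 21 on GRCm38 (55141 identifiers matched without version). Expected counts were rounded, filtered with filterByExpr (13908 genes) and scaled by TMM in edgeR 4.0.16 (R 4.3.3), and groups were compared by its robust quasi-likelihood test without covariates. P-values were adjusted by Benjamini-Hochberg over all genes tested, threshold 0.05. Log2 levels used a prior count of 2. Alternatives used DESeq2 1.42.0, limma 3.58.1 and sva 3.50.0. Fits were checked on simulated counts.

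The members and lists were chosen with earlier results of these data known. Named genes are the 9 genes, Tbl1xr1, up to 2 per direction past the threshold in each list or else the 2 with the smallest p, and, for the 3 most abundant of the 9, the 3 genes with the highest correlation and a mean of at least 5 CPM. Klb, Fgfr4, Gfral, Ret and Lipg were named after their values were seen. Same-group libraries differed by far more than counting noise. Of the genes this rule names, 2 are not reported here.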

Additional observations from a re-analysis of the deposited data

Results flagged for a closer look

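Gdf15 in shTbl1xr1 4 lay far from the other libraries of its group, at 5.36 CPM against 19.7 to 23.3 CPM in shTbl1xr1 1 to 3. Inhbe in shNC 2 lay far from the other libraries of its group, at 17.2 CPM against 36.0 to 38.7 CPM in shNC 1, 3 and 4. These came from 20 groups of 4 libraries checked for the 9 genes and Tbl1xr1, and chance marks about 1 such group in 20. In the same libraries the other gene was also low, with Inhbe at 9.40 CPM in shTbl1xr1 4 and Gdf15 at 7.25 CPM in shNC 2, each the lowest of its group. Fgf21 was the lowest of its group there too, at 0.174 CPM in shTbl1xr1 4 and 0.131 CPM in shNC 2. Over the 8 libraries Gdf15 and Inhbe had Pearson's r = 0.76 (exact permutation p = 0.0326, adjusted over 36 pairs 0.421) and Spearman's rho = 0.26 (exact permutation p = 0.536, adjusted 0.715). Without these 2 libraries r was -0.55, so the relation rests on them.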

How the results depend on the processing

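Libraries with the same number deviated together with correlations of 0.38, -0.07, 0.30 and 0.12, so the numbers were not taken as pairs, and 2 of 4 numbers correlated best with their own. With the replicate block, 4 genes were higher and 1 lower, and 0 of the 9 passed. Log2 fold changes then changed sign for Fgf21 (-0.22), Angptl8 (-0.17), Igfbp1 (-0.20) and Fst (-0.13). The block lowered the SE of Igfbp1 (0.95 to 0.42), Angptl4 (0.42 to 0.20), Fgf21 (1.3 to 0.88), Angptl8 (0.64 to 0.41) and Igfbp2 (0.43 to 0.39). It raised that of Gdf15 (0.45 to 0.50), Inhbe (0.38 to 0.42) and Fst (0.47 to 0.56), and left Inhba at 0.32.

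Igfbp2 was positive and Inhbe negative under all 19 alternatives. For Igfbp2 the alternatives that only left libraries out had to be positive, since its groups do not overlap. Signs changed with upper quartile scaling (Angptl8 -0.038, Fst -0.024), size alone (Gdf15 -0.11, Angptl8 -0.43, Fst -0.10), limma-voom (Angptl8 -0.41, Igfbp1 -0.43), 1 surrogate variable (Gdf15 -0.19, Angptl4 0.082, Angptl8 -1.27), shTbl1xr1 3 and 4 only (Gdf15 -0.22, Angptl4 0.085, Angptl8 -1.42) and shTbl1xr1 1 and 2 only (Fgf21 -2.04, Igfbp1 -2.34, Fst -1.18). The cause was not tested.

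Leaving out 1 library gave Fgf21 -2.69 to 2.05, Gdf15 0.04 to 0.58, Angptl4 -0.62 to -0.16, Angptl8 -0.58 to 0.61, Igfbp1 -1.07 to 1.13, Igfbp2 1.19 to 1.91, Inhba -0.28 to 0.23, Inhbe -0.88 to -0.34, Fst -0.32 to 0.32 and Tbl1xr1 -2.71 to -1.79, with 0 to 28 genes higher and 0 to 6 lower. Signs changed without shTbl1xr1 3 for Fgf21, Igfbp1, Inhba and Fst, without shTbl1xr1 1 or 2 for Angptl8, without shTbl1xr1 4 for Fst, without shNC 1 for Igfbp1 and Inhba, without shNC 2 for Igfbp1, and without shNC 3 or 4 for Angptl8 and Fst.

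Genes passing as higher numbered 6 in the reported test, 3 with size alone, 12 without a filter, 248 by DESeq2, 40 with 1 surrogate variable and 3073 with shTbl1xr1 1 and 2 only. Those lower numbered 1 in the reported test, 47 by DESeq2, 4 with 1 surrogate variable, 3021 with shTbl1xr1 1 and 2 only, 0 by limma-voom (523 at unadjusted p under 0.05) and 0 with shTbl1xr1 3 and 4 only (677 unadjusted). Of the 9 genes, 1 passed as higher by DESeq2 (Igfbp2) and 1 as lower with shTbl1xr1 1 and 2 only (Fst). Tbl1xr1 passed by DESeq2 (-2.13), with 1 surrogate variable (-1.56) and with shTbl1xr1 1 and 2 only (-3.88). Ranking by the median TPM put Fgf21 at 9, Inhba at 8, Inhbe at 7 and Fst at 6 in shTbl1xr1. Fgf21 had only 3 to 16 counts in 5 libraries, among them shTbl1xr1 4, the deepest of all, and a stricter filter gave it no value.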
